A study of Mus musculus with 19 samples.

Results

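The change from mouse embryonic stem cells (ESC) to epiblast-like cells (EpiLC) was followed in cells whose Foxd3 gene was left intact, per the labels. The members were taken by their sample names: 3 EpiLC samples given ethanol, the solvent, against 3 ESC samples given ethanol, which together are 6 of the 12 samples of the series and 8 of its 19 arrays. The other 6 samples, also EpiLC and ESC, were given tamoxifen at 1 µM for 36 h to delete Foxd3, and the labels call the ethanol samples wild-type controls of these. The medium was Knockout DMEM with fetal bovine serum for every group, to which LIF and 2i were added for ESC. The name 2i stands for inhibitors of the kinases GSK and MEK. How long the EpiLC had been without LIF and 2i, what drives the recombinase and whether the cells are 1 clone are not given in the sources used here. Cell state and medium go together in these samples and cannot be told apart.

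Naive ESC correspond to the epiblast of the blastocyst, and LIF, acting through STAT3, and the inhibition of MEK and GSK hold them there. Once these are taken away, FGF signalling through ERK carries the cells into the formative state of the epiblast after implantation, which EpiLC represent. Naive transcription factors such as Klf4, Esrrb and Tbx3 are lost on that path, formative ones such as Pou3f1 and Otx2 appear, and Pou5f1, the core pluripotency factor, is kept.

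Total RNA was read on Illumina bead arrays, in which each probe reports 1 gene by the brightness of its beads. Between 10707 and 11255 of 25697 probes were detected per EpiLC ethanol array and between 10330 and 10842 per ESC ethanol array, detected meaning a detection p-value under 0.01 against the negative controls of that array. Levels below are normalized log2 intensities, given in the order of replicates 1, 2 and 3, and changes are EpiLC minus ESC on that scale with the standard error (SE) of limma's fit, n = 3 samples per group. Hybridization round 1 took the 3 EpiLC ethanol samples, round 2 took ESC sample 1, and ESC samples 2 and 3 were read in both, so the shift between rounds was taken from the 7 samples read in both, with a median absolute size of 0.14. Foxd3 has 1 probe, which was detected on 0 of 3 EpiLC and 0 of 5 ESC arrays (lowest detection p-values 0.801 and 0.239), so it checks nothing about the labels.

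Markers of both states could be read in part and lay with the labels. Of 5 naive markers on the array, 3 were detected on an EpiLC array and 4 on an ESC array, and their summed linear intensity was 2604 to 3927 in EpiLC and 33774 to 36503 in ESC. Of 6 formative markers, 4 were detected in EpiLC and 3 in ESC, and the sums were 32964 to 34567 in EpiLC and 7390 to 8407 in ESC. The probes for Nr0b1, Dnmt3a and Sox3 were detected in neither state, and Tfcp2l1 is not on the array. Among markers of other cells, Gata4, Sox17, Sox7 and Pdgfra of primitive endoderm, Mixl1, Eomes and Mesp1 of mesoderm, Sox1, Pax6 and Pax3 of neuroectoderm, Elf5 and Hand1 of trophoblast and Col1a1, Col1a2, Col3a1 and Postn of fibroblasts were detected on no array of either group. Gata6, Cdx2, Gata3 and Thy1 were detected on every array of both groups, and Dcn was detected on every EpiLC array and no ESC array. Summed over each marker list, the level ran from 271 to 289 in EpiLC and from 211 to 233 in ESC for primitive endoderm, and from 405 to 498 in EpiLC and from 435 to 448 in ESC for fibroblasts. The trophoblast sums were 249 to 329 in EpiLC and 263 to 459 in ESC. All 3 sums take in probes that were detected on no array. Of the 5 primitive endoderm markers only Gata6 was detected, and it was not called, so that sum is in large part background. The part of such cells in the results was not tested. In a bulk sample fewer cells of a type and less RNA per cell cannot be told apart.

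The states differed in a large part of what was measured. Of 9422 genes and unnamed probes tested, 5309 were called (56.3%), 2814 of them higher in EpiLC (29.9%) and 2495 lower (26.5%), at a Benjamini-Hochberg adjusted p under 0.05 in limma, and 5761 had an unadjusted p under 0.05. The 3 EpiLC and 3 ESC samples did not overlap for 5854 (62.1%), of which 5135 were also called. By the fitted folds 3376 of the calls (63.6%) changed by less than 2-fold, while 999 rose and 934 fell by at least 2-fold. These counts take in genes at background in 1 state, and without background correction they were 385 and 424. Among genes detected on all arrays of both states 462 rose and 534 fell by at least 2-fold, 95 and 151 by at least 4-fold and 24 and 52 by at least 8-fold. A gene was tested if a probe of it was detected on at least 3 of the 19 arrays, so a gene seen on fewer arrays is not counted, and for one that passed only through the state in which it is high the filter itself favours a difference. The median change over all tested was 0.03, with a median SE of 0.13. Samples of 1 state correlated at 0.990 to 0.996 over all genes and samples of different states at 0.901 to 0.913. On round 1 arrays alone, which hold all 3 EpiLC and 2 ESC samples, 2376 rose and 2105 fell. Round 2 holds no EpiLC ethanol array. Counts within the gene lists below stand against shares of 29.9% higher and 26.5% lower over all genes tested.

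**Figure D1:**
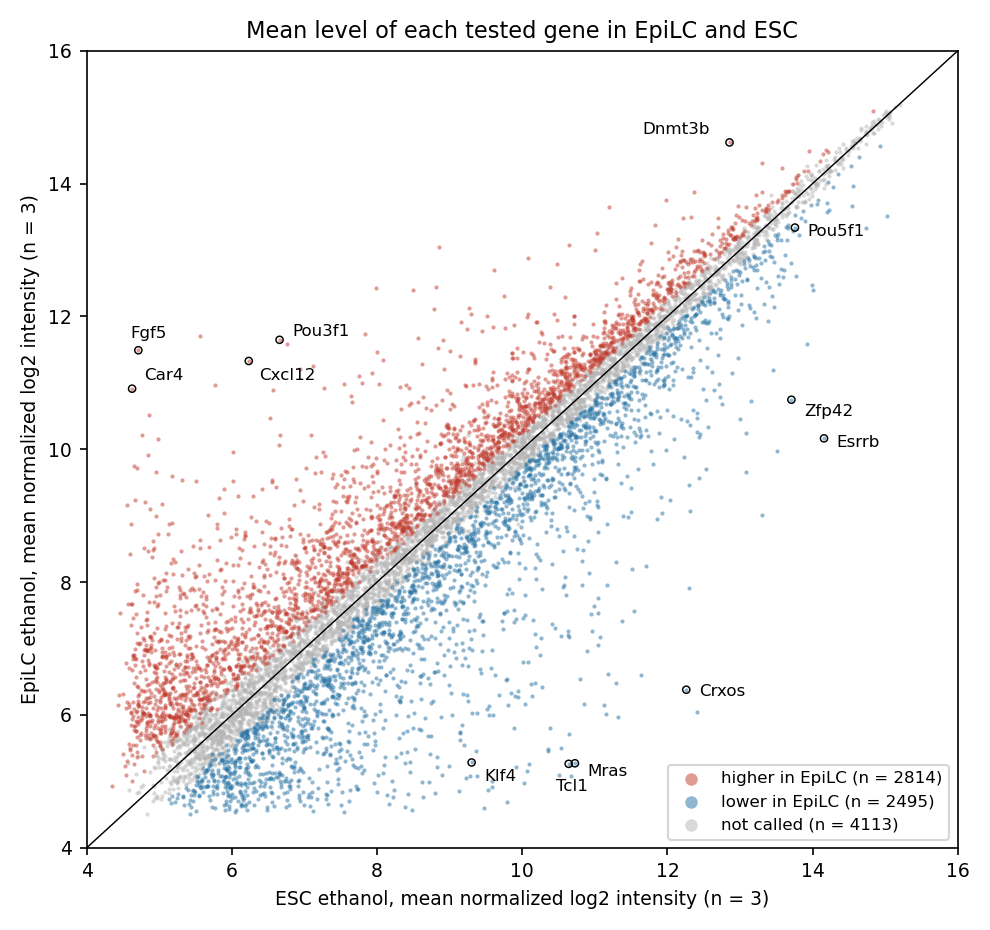
Mean normalized log2 intensity of each of 9422 tested genes in EpiLC ethanol (vertical axis) against ESC ethanol (horizontal axis), n = 3 samples each; red points were called higher in EpiLC (2814), blue lower (2495) and grey not called (4113), and the line marks equal levels. Circled genes are named: Fgf5 and Car4 lie at the upper left, near background in ESC, and Klf4, Tcl1 and Mras lie at the bottom, near background in EpiLC.

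Among genes detected on all arrays of both groups, the largest rise was that of Cxcl12, a chemokine that guides migrating cells. Its levels were 11.27, 11.31 and 11.40 in EpiLC, against 6.03, 6.34 and 6.33 in ESC, a change of 5.10 (SE 0.12, adjusted p = 5.46e-11). Pou3f1, the POU factor also called Oct6, stood at 11.56, 11.74 and 11.64 in EpiLC, against 6.92, 6.63 and 6.43 in ESC (change 4.99, SE 0.12). The groups lay far apart for both genes, and no sample of one state came near the other. The tight junction protein Cldn6 rose by 4.44 (SE 0.18), the actin-associated Pdlim3 by 4.27 (SE 0.15), the ERK phosphatase Dusp6 by 4.20 (SE 0.26) and the cyclin-dependent kinase inhibitor Cdkn1c by 3.91 (SE 0.09). Further large rises were those of Id1, an antagonist of basic helix-loop-helix factors (3.90), the Snail family member Snai3 (3.64), Pramel39 (3.46), cyclin O, encoded by Ccno (3.43), keratin 18, encoded by Krt18 (3.41), the homeobox factor Otx2 (3.35), Pramel37 (3.33) and the immunoglobulin-like membrane protein Igsf9 (3.26).

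The largest fall of this kind was that of Crxos, a homeobox gene of the early embryo, at 6.63, 6.40 and 6.12 in EpiLC, against 12.03, 12.32 and 12.43 in ESC (fell by 5.88, SE 0.19, adjusted p = 6.07e-10). Spic, an ETS factor, stood at 5.82, 6.23 and 5.98 in EpiLC, against 10.79, 11.26 and 11.40 in ESC and fell by 5.14 (SE 0.29). All 3 EpiLC samples lay under all ESC samples for both genes by several log2 units. Lrrc34 fell by 5.03 (SE 0.09), 2410137M14Rik by 4.82 (SE 0.25), the glutathione transferase Gsta3 by 4.69 (SE 0.19) and the oligoadenylate synthetase Oas1g by 4.58 (SE 0.16). The other large falls were those of Fam25c (-4.39), Laptm5, a lysosomal membrane protein (-4.30), the water and glycerol channel Aqp3 (-4.25), the actin nucleator Cobl (-3.99), Esrrb (-3.99), Rab11fip5, which binds the recycling GTPase Rab11 (-3.97), Tbx3 (-3.96) and the phospholipase Pla1a (-3.92).

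Naive pluripotency genes fell together, with 16 of 21 tested lower in EpiLC and 0 higher. The list holds 30 genes, 25 of them on the array, and its median change was -2.25, against 0.03 over all genes. Esrrb, an orphan nuclear receptor of the naive network, stood at 9.85, 10.55 and 10.09 in EpiLC, against 14.17, 14.19 and 14.11 in ESC. It fell by 3.99 (SE 0.17, adjusted p = 4.37e-09), and the T-box factor Tbx3 fell by 3.96 (SE 0.14). Zfp42, also called Rex1 and much used as a naive reporter, had 10.49, 11.08 and 10.67 in EpiLC, against 13.64, 13.82 and 13.66 in ESC and fell by 2.96 (SE 0.16). The nuclear receptor Nr5a2 fell by 3.70, Klf2 by 3.42 and Klf5 by 1.79, and the adhesion molecule Pecam1 (-2.68) and Fbxo15 (-2.25) fell as well. Klf4 was detected on all 5 ESC arrays and no EpiLC array, and it was at least 11.1-fold lower in EpiLC. The same holds for Tcl1, a co-activator of the kinase Akt (at least 28.0-fold lower), the adhesion molecule Jam2 (at least 12.5-fold) and Sox15 (at least 2.79-fold).

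Not every naive gene went with them. Nanog, a homeobox factor, kept a high level at 12.08, 11.79 and 11.54 in EpiLC, against 12.74, 12.77 and 12.66 in ESC. It fell by 0.92 (SE 0.15, adjusted p = 0.000221), and the homeobox factor Gbx2 fell by 0.92 (SE 0.13). Dppa3, a protector of maternal methylation, had 9.52, 10.23 and 9.98 in EpiLC, against 9.26, 9.59 and 9.88 in ESC, which overlap, and Dppa4 had a change of 0.17 (SE 0.12). Dppa5a (-0.18, SE 0.07), Gdf3 (-0.15, SE 0.08) and Aire (-0.85, SE 0.56) were not called either. Fgf4, the main FGF of ESC, had 6.19, 7.81 and 6.81 in EpiLC, against 7.67, 8.03 and 8.01 in ESC, and the samples overlap. Its change of -0.96 (SE 0.37, adjusted p = 0.0412) lost its call under 8 of 18 alternative settings.

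Formative and primed epiblast genes moved the other way, with 17 of 21 tested higher and 1 lower and a median change of 2.06. Of these 21, 6 were detected in EpiLC only. Otx2, a homeobox factor of the formative state, stood at 10.75, 11.48 and 11.08 in EpiLC, against 7.71, 7.64 and 7.90 in ESC (change 3.35, SE 0.18, adjusted p = 3.03e-08). Dnmt3b, a de novo DNA methyltransferase, had 14.62, 14.64 and 14.60 in EpiLC, against 12.97, 12.83 and 12.77 in ESC, and its change of 1.76 (SE 0.10) started from a level that was already high. The zinc finger factor Sall2 rose by 3.12, the basic helix-loop-helix factor Tcf15 by 1.46, Plekha1 by 1.33 and Utf1, a chromatin-bound factor of pluripotent cells, by 1.12. The kinase Pim2, detected on 3 of 5 ESC arrays, had a fitted rise of 3.95, Grhl2, a factor of epithelia, 2.79 (2 of 5 arrays) and the forkhead factor Foxp1 2.06 (1 of 5 arrays). Etv5, an ETS factor downstream of ERK, was the member that fell, at 10.34, 10.47 and 10.49 in EpiLC, against 11.16, 11.13 and 11.09 in ESC (change -0.69, SE 0.10). Nodal (0.17, SE 0.07), Dnmt3l (0.40, SE 0.21) and Etv4 (0.51, SE 0.28) were not called. The 4 members on the array that were too dim to test were Dnmt3a, Sox3, Zic5 and Cdh2.

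Genes shared by both states went both ways. Of 19 tested, 7 rose and 4 fell, with a median of 0.17. The share called, 57.9%, lay near that of all genes tested (56.3%). Pou5f1 stood at 13.28, 13.39 and 13.35 in EpiLC, against 13.74, 13.78 and 13.75 in ESC and fell by 0.42 (SE 0.08, adjusted p = 0.000704), a small step at a very bright probe. Sox2, the partner of Pou5f1, had 8.52, 9.25 and 9.18 in EpiLC, against 10.08, 10.19 and 10.20 in ESC and fell by 1.17 (SE 0.25). Sall4, a zinc finger factor, had 12.78, 12.81 and 12.83 in EpiLC, against 12.71, 12.76 and 12.80 in ESC, with overlapping samples and a change of 0.05 (SE 0.07). Lin28a, an RNA-binding protein that blocks let-7 maturation, was the member that rose most after Otx2, at 8.92, 8.86 and 8.48 in EpiLC, against 6.36, 6.37 and 6.53 in ESC (change 2.33, SE 0.13). Mybl2, a cell cycle factor (-1.71), and Zfp296 (-1.28) fell, while nucleolin, encoded by Ncl, rose by 1.02. The plot of state markers by sample shows these steps side by side.

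**Figure D2:**
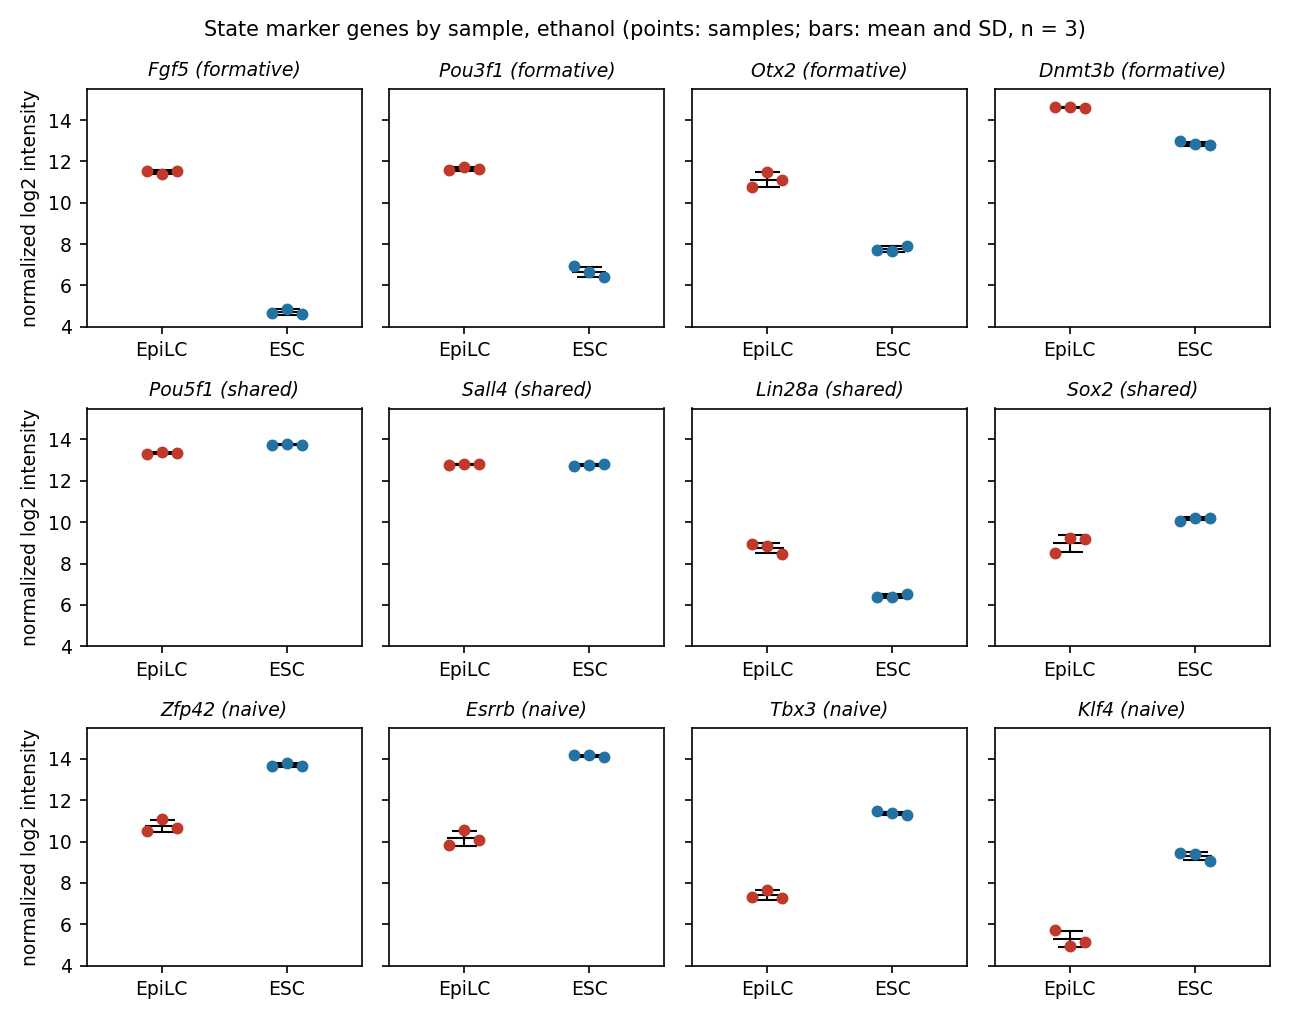
Normalized log2 intensity of 12 state markers in the 3 EpiLC and 3 ESC ethanol samples (red and blue points), with mean and SD (black, n = 3 each). The top row holds formative genes, all higher in EpiLC; the middle row holds shared genes, with Pou5f1 and Sall4 within 0.5 of each other between the states, Lin28a higher and Sox2 lower; the bottom row holds naive genes, all lower in EpiLC.

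Some genes crossed the detection limit. On every EpiLC array and no ESC array 411 genes were detected, and on every ESC array and no EpiLC array 199. For these the fold is a lower bound: the brighter group's mean over that of the dimmer group with each array raised to its lowest detected signal. Of the 411 EpiLC-only genes 405 were called higher, and all 199 ESC-only genes were called lower. They were picked by detection on these same arrays, so a call in that direction was nearly fixed beforehand. The same holds for members of the gene lists that were detected in 1 state only. The median bound was 1.71-fold for the EpiLC-only genes, of which 14 had a bound under 1 and so no fold, and 2.36-fold for the ESC-only genes. A bound of at least 2-fold was reached by 149 EpiLC-only and 128 ESC-only genes. At a detection p-value under 0.05 in place of 0.01 there were 294 EpiLC-only and 148 ESC-only genes.

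The genes that appeared in EpiLC include several secreted signals. Fgf5, the classic marker of the primed epiblast, stood at 11.52, 11.40 and 11.55 in EpiLC, against 4.68, 4.85 and 4.60 in ESC, the ESC values being background, and it was at least 45.2-fold higher (adjusted p = 1.60e-12). Fgf8, an FGF of the primitive streak, was at least 22.9-fold higher, and Wnt8a, a posterior Wnt ligand, at least 12.1-fold. The carbonic anhydrase Car4 had 10.90, 11.21 and 10.63 in EpiLC, against 4.51, 4.76 and 4.61 in ESC, at least 30.3-fold higher. Epha1, an Eph receptor kinase, was at least 15.1-fold higher, Tmem54 at least 18.7-fold and Vrtn, a factor tied to vertebra number in pigs, at least 17.9-fold. The interferon-inducible GTPase Gbp2 was at least 13.5-fold higher, the hyaluronan synthase Has2 at least 13.2-fold and the immediate early factor Egr1 at least 12.7-fold.

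The genes that were read in ESC only were led by Mras, a Ras-like GTPase, at 5.02, 5.47 and 5.33 in EpiLC, against 10.57, 10.87 and 10.74 in ESC, at least 29.7-fold lower in EpiLC (adjusted p = 4.97e-11). Pglyrp1, a peptidoglycan recognition protein, was at least 28.7-fold lower, Tcl1 at least 28.0-fold, 2510009E07Rik at least 26.0-fold and Cabs1, a calcium-binding sperm protein, at least 25.6-fold. Notum, an enzyme that inactivates Wnt proteins and is itself a Wnt target, had 5.45, 5.23 and 4.80 in EpiLC, against 9.97, 10.12 and 10.10 in ESC and was at least 18.8-fold lower. Zscan5b was at least 19.3-fold lower, the lipid carrier Apod at least 18.4-fold, the basement membrane protein Nid1 at least 16.9-fold and the channel Pkd2l1 at least 13.5-fold.

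FGF and ERK response genes rose as a group, with 16 of 20 tested higher and 2 lower and a median of 0.95. Of these genes 3 were detected in EpiLC only, and the calls of Junb and Ier3 were lost under several alternative settings. Among the ligands of the pathway, besides Fgf5 and Fgf8, Fgf15, the mouse counterpart of human FGF19, was at least 5.72-fold higher, and Fgf13 rose by 1.89, while Fgf10 was at least 1.79-fold lower. Of 12 tested Fgf ligands and receptors 7 rose and 2 fell. Among feedback inhibitors of ERK signalling, Spry1, Spry2 and Spred2 were too dim to test. Dusp6 had 13.19, 13.06 and 12.89 in EpiLC, against 9.30, 8.83 and 8.42 in ESC, and Dusp4, a nuclear ERK phosphatase, rose by a fitted 4.32 (SE 0.27), being detected on 4 of 5 ESC arrays. Il17rd, also called Sef, rose by 1.06 and the Raf inhibitor Spred1 by 1.23. Spry4, a Sprouty inhibitor, was detected on 2 of 5 ESC arrays and had a fitted rise of 1.79. Dusp14 went against these with a fall of 2.35 (SE 0.20). Among the transcription factors, Jun was at least 2.21-fold higher, Myc at least 1.72-fold and Etv1 rose by 0.81 (SE 0.17). Cyclin D1, encoded by Ccnd1, rose by 0.26 (SE 0.07) and the survival factor Mcl1 by 0.67 (SE 0.08).

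Srf, the serum response factor itself, had 11.10, 10.70 and 10.59 in EpiLC, against 9.90, 9.97 and 9.75 in ESC, a change of 0.92 (SE 0.16, adjusted p = 0.000349). Egr2, an immediate early factor, was detected on 2 of 3 EpiLC arrays and 0 of 5 ESC arrays and called higher (adjusted p = 0.00113), with no fold given since its bound was under 1. The promoters of Srf and Egr2 are shown because they hold a serum response element, the binding site of Srf, in the 250 bases before a transcription start. No other of the 13 FGF and ERK genes with a listed promoter holds one there. Of all 7076 tested genes with a promoter in the RefSeq table (build GRCm38.p6) 107 (1.51%) hold one, and over all 27025 genes listed there the share is 1.62%. A gene counts if any of its listed starts has a match, so genes with more starts have more openings for one. The motif was searched for on both strands, was chosen after the values of these genes had been seen, and stands in capitals in each sequence. A match describes the letters of a window and nothing more. The Srf window is chr17:46556163-46556412, minus strand, and the Egr2 window, 1 of 4 listed starts, is chr10:67537619-67537868, plus strand.
Srf: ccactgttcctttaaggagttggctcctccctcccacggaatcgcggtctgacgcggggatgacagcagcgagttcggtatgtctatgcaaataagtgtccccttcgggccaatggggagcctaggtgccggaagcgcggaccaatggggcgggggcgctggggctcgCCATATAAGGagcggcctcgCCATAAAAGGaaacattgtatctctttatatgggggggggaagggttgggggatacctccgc
Egr2: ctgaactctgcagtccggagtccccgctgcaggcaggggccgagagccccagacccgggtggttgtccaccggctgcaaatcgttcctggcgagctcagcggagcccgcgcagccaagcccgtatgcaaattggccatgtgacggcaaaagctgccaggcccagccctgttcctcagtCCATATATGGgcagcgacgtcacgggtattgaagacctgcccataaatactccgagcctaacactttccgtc

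LIF and STAT3 response genes did not move as 1 group. Of 23 tested, 12 fell and 8 rose, with a median of -0.76. The receptor side fell: Lifr, the LIF receptor, was detected on no EpiLC array and was at least 2.29-fold lower, Il6st, its co-receptor gp130, fell by 0.97 (SE 0.19) and was still detected on 2 of 3 EpiLC arrays. Stat3 had 6.54, 6.94 and 7.71 in EpiLC, against 8.57, 8.66 and 8.43 in ESC and fell by 1.49 (SE 0.30, adjusted p = 0.00130). Socs3, the feedback inhibitor that STAT3 induces, had 7.98, 7.28 and 7.87 in EpiLC, against 8.59, 9.60 and 9.23 in ESC and fell by 1.43 (SE 0.29). For both genes every EpiLC sample lay under every ESC sample. Bcl3 was at least 3.23-fold lower, Ifitm3 fell by 1.00, Ifitm2 by 0.91 and the kinase Sgk1 by 0.91. Members that rose were Gadd45g, a stress-induced growth inhibitor (2.62), the mRNA-decay factor Zfp36 (2.11), Irf1, an interferon regulatory factor (2.05), Cebpb (1.73), Socs2 (1.50) and Cish (1.06), further feedback inhibitors of cytokine signalling. Pim1 (-0.17, SE 0.21), Pim3 (0.17, SE 0.07) and Rhox5 (0.29, SE 0.26) were not called.

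The letters TTCNNNGAA, the core that STAT factors are known to bind, were searched for in the same windows, a search also chosen after the values were seen. They read the same on both strands, and 8.13% of all genes with a promoter and 7.11% of the tested ones hold them. Of 20 genes of the LIF and STAT3 list with a promoter, 4 (20%) did: Socs3 and Sgk1, which fell, and Zfp36 and Irf1, which rose. The Socs3 window (chr11:117969367-117969616, minus strand) is shown as the feedback gene of the pathway, with the match in capitals.
Socs3: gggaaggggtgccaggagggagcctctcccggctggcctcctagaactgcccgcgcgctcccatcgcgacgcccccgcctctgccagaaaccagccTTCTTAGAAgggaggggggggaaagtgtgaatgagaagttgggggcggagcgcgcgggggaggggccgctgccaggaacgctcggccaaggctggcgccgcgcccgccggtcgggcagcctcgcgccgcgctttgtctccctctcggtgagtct

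Wnt genes went both ways. Of 12 tested Wnt ligands and Frizzled receptors 8 rose and 2 fell. Of these 12, 6 were detected in EpiLC only and 1 in ESC only, where the direction of a call was nearly fixed beforehand. Wnt3, a ligand of the primitive streak, was at least 2.27-fold higher, Wnt6 at least 3.36-fold and the receptor Fzd2 at least 3.70-fold, and Fzd7 rose by 2.14 (SE 0.17). Wnt3a went the other way, at least 3.43-fold lower. Of 15 tested genes that respond to beta-catenin, 6 rose and 5 fell, with a median of -0.24. Here 3 were detected in EpiLC only and 3 in ESC only. The targets Notum and Cdx1 were detected in ESC only, Cdx1 at least 5.96-fold lower in EpiLC, and the inhibitor Apcdd1 fell by 1.73 (SE 0.14). Lef1, a partner of beta-catenin, was at least 1.73-fold higher.

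Genes listed for Nodal and TGF-beta rose in 10 of 14 cases and fell in 2, with a median of 0.94. The list mixes response genes with pathway components such as Tdgf1, Foxh1 and Acvr2b, which rose. It also holds Id1, Id2 and Id3, which rose too, so the count does not read a Nodal response alone. The 2 that fell were Lefty2 and Gsc, and Nodal and Gdf3 were not called. Lefty1, a secreted inhibitor of Nodal, had 12.03, 12.25 and 12.09 in EpiLC, against 9.34, 8.99 and 9.45 in ESC, a change of 2.86 (SE 0.13, adjusted p = 9.50e-09). Id1, a target of BMP signals, had 11.60, 11.77 and 11.81 in EpiLC, against 8.12, 7.62 and 7.75 in ESC, and Id2 was at least 2.27-fold higher. Skil, a SMAD co-repressor, rose by 1.57 (SE 0.13), and Tdgf1, the Nodal co-receptor Cripto, by 1.39 (SE 0.26), a call lost under 1 of 18 alternatives. In the Notch pathway 5 of 9 rose and 3 fell, and the receptors parted: Notch3 rose by 2.23 (SE 0.13), Notch4 fell by 1.91 (SE 0.14) and Notch1 was at least 2.19-fold lower. The ligand Jag2 was at least 2.42-fold higher, and Hes6, a helix-loop-helix factor, rose by 1.95.

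**Figure D3:**
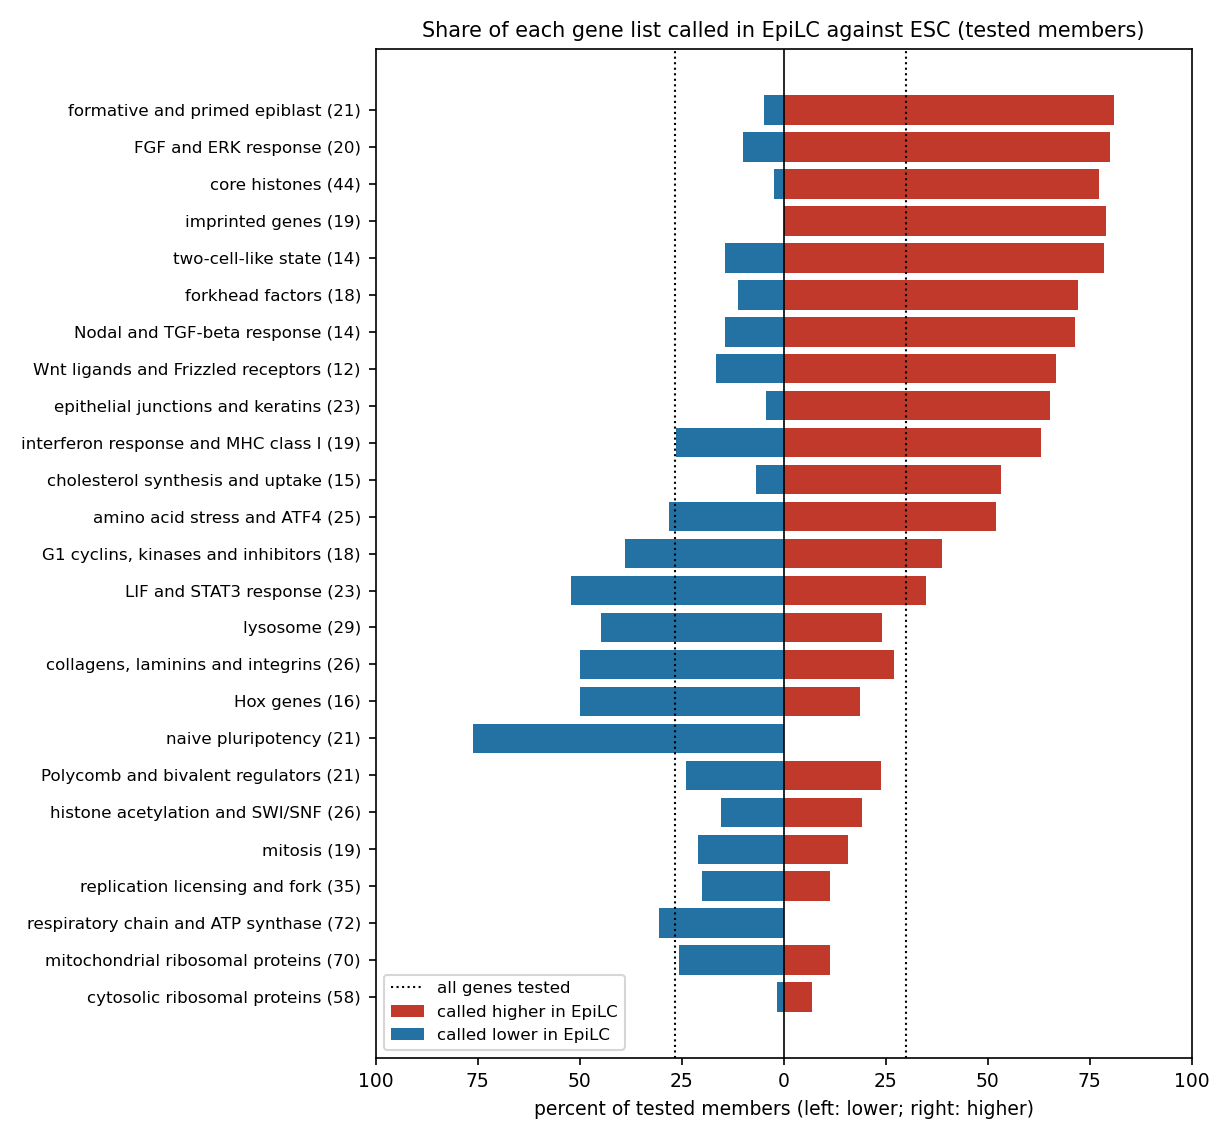
Share of the tested members of 25 gene lists called lower (blue, to the left) or higher (red, to the right) in EpiLC than in ESC in ethanol, with the number tested in brackets; dotted lines mark the shares over all genes tested (26.5% lower, 29.9% higher). Formative, FGF and ERK, imprinted and core histone genes lie far to the right, naive genes far to the left, and ribosomal proteins reach neither line.

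Genes of DNA methylation changed singly. Of 12 tested 4 rose and 3 fell, with a median of 0.14. Here too the share called, 58.3%, lay near that of all genes tested (56.3%). Beside Dnmt3b, the thymine DNA glycosylase Tdg rose, at 10.19, 10.54 and 10.25 in EpiLC, against 8.94, 9.23 and 8.99 in ESC (change 1.27, SE 0.11, adjusted p = 1.25e-06), and Gadd45a rose by 0.78 (SE 0.18). Mbd4, a further glycosylase, was called at 0.25 (SE 0.09), a call lost under 8 of 18 alternatives. Gadd45b had 7.53, 7.75 and 7.84 in EpiLC, against 8.81, 9.12 and 9.24 in ESC and fell by 1.35, the maintenance factor Uhrf1 fell by 0.43 (SE 0.10) and Mbd1, a reader of methylated DNA, by 0.51. Dnmt1, the maintenance methyltransferase, was not called (-0.02, SE 0.08), nor were Mbd3, Usp7, Apobec1 and Dnmt3l. Dnmt3a, Tet3, Prdm14, Mbd2 and Hells are on the array and were too dim to test.

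Germline genes that DNA methylation is known to silence went both ways, 6 of 21 higher and 11 lower. Nanos3, a translational repressor needed by primordial germ cells, was at least 6.44-fold lower, and the testis tubulin Tuba3a fell by 2.29 (SE 0.27). Ddx4, the Vasa helicase of germ cells, was at least 2.50-fold higher and Mov10l1, a helicase of the piRNA pathway, at least 2.95-fold. The X-linked homeobox genes Rhox6 and Rhox9 rose by 1.98 (SE 0.20) and 2.02 (SE 0.24), while Rhox10, detected on 3 of 5 ESC arrays and no EpiLC array, was at least 1.09-fold lower. Genes of the 2-cell-like state, which a few cells of an ESC culture enter and which recalls the cleavage stage, were higher in 11 of 14 cases and lower in 2, with a median of 1.31. Tdpoz4 rose by 2.13 (SE 0.20), Tdpoz1 was at least 2.01-fold higher and Tcstv3 rose by 1.27 (SE 0.13). Tdpoz and Tcstv genes lie in families of close copies, and which copy a probe read is uncertain.

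Imprinted genes, which are expressed from 1 parental allele, rose in 15 of 19 tested cases and fell in 0, with a median of 1.71. Of these 19, 5 were detected in EpiLC only. Cdkn1c, a maternally expressed inhibitor of the cell cycle, had 12.32, 12.41 and 12.48 in EpiLC, against 8.49, 8.48 and 8.51 in ESC (change 3.91, SE 0.09, adjusted p = 4.97e-11). Igf2, a paternally expressed growth factor, had 11.88, 12.18 and 12.06 in EpiLC, against 9.42, 9.26 and 9.21 in ESC (change 2.75, SE 0.12). The spread within each state was small against the step for both. Phlda2, a placental growth restrictor, rose by 2.77, the adaptor Grb10 by 2.57 and Snrpn, a spliceosome protein, by 1.78, and the retrotransposon-derived Peg10 was at least 2.22-fold higher. Igf2r, Slc38a4, Tssc4 and Cd81 were the tested members not called, with changes of 0.10, -0.09, -0.07 and -0.19. With the hybridization round left uncorrected 2 members were called lower. Array signals do not tell the parental alleles apart.

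Core and linker histone genes were higher in 34 of 44 tested cases and lower in 1, with a median of 0.75. The probes that passed with the smallest p named H4c12 (1.89, SE 0.13), H4c6 (1.76), H4c18 (1.73), H4c9 (1.71) and H4c11 (1.59), all copies of the H4 gene. These copies are nearly identical in their coding sequence, so which copy a probe read is uncertain and the 34 are not independent. Of 35 replication genes 4 rose and 7 fell (median -0.10), and of 19 mitosis genes 3 rose and 4 fell (median -0.06), and on round 1 arrays alone mitosis had 1 and 2. Among cyclins and their inhibitors 7 of 18 rose and 7 fell. Cyclin D2, encoded by Ccnd2, was at least 2.73-fold higher, Ccne2 rose by 1.17 (SE 0.11), Ccnd3 fell by 1.30 (SE 0.08) and Cdkn1a, the inhibitor p21, fell by 0.90 (SE 0.14).

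**Figure D4:**
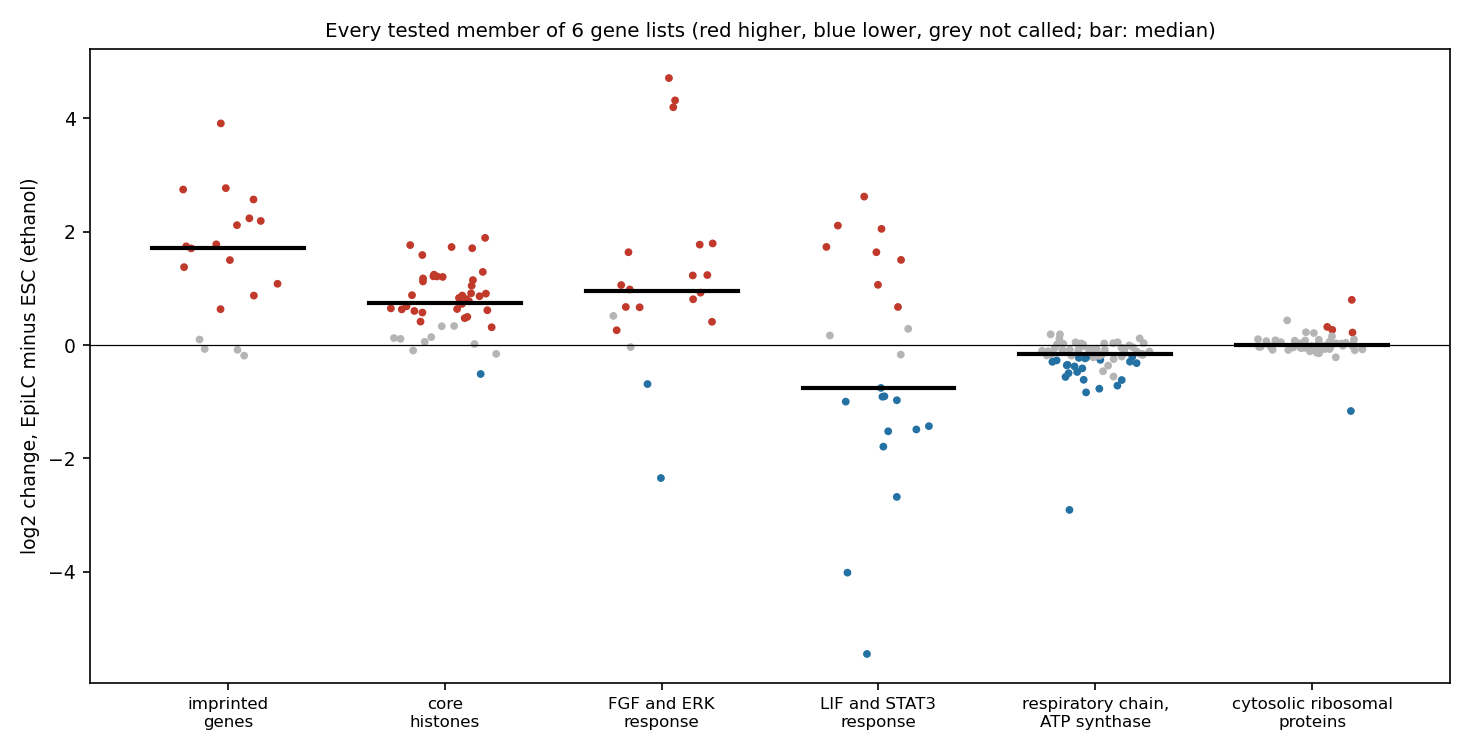
Log2 change (EpiLC minus ESC, ethanol) of every tested member of 6 gene lists; red points were called higher, blue lower and grey not called, and the black bar is the list's median. Imprinted and histone genes lie almost wholly above 0, LIF and STAT3 genes spread to both sides, and ribosomal proteins gather at 0.

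Genes of epithelial junctions and keratins rose in 15 of 23 cases and fell in 1, with a median of 1.14. Esrp1, a splicing factor of epithelial cells, had 11.74, 11.68 and 11.68 in EpiLC, against 6.12, 5.17 and 5.39 in ESC, a fitted change of 6.14 since it was detected on 1 of 5 ESC arrays. Krt18 and its partner Krt8 rose by 3.41 (SE 0.19) and 2.29 (SE 0.20). Lsr, a protein of tricellular junctions, had a fitted rise of 3.16 and was detected on 1 of 5 ESC arrays. Mesenchymal genes went both ways, 4 of 11 higher and 4 lower (72.7% called, against 56.3% of all genes tested). Zeb1, a repressor of epithelial genes, fell by 3.43 (SE 0.26), the intermediate filament Vim by 0.78 (SE 0.12) and smooth muscle actin, encoded by Acta2, by 1.78 (SE 0.18). Twist1 rose by 1.34 (SE 0.11), and the matrix metalloproteases Mmp2 and Mmp14 rose by 2.57 and 1.66. Of 26 tested collagens, laminins and integrins 13 fell and 7 rose (median -0.47), with Itgae, the alpha chain of the E-cadherin receptor of lymphocytes, at a change of -1.93, the laminin chain Lamc1 at -1.36 and the collagen Col18a1 at 1.18. Of the 73 members of that list on the array 47 were too dim to test.

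Among genes of the actin cytoskeleton, Zyx, a focal adhesion protein, had 13.75, 13.54 and 13.68 in EpiLC, against 11.28, 11.33 and 10.99 in ESC (change 2.45, SE 0.11, adjusted p = 9.96e-09), and the tropomyosin Tpm1 had 13.12, 13.02 and 13.08 in EpiLC, against 10.66, 10.72 and 10.58 in ESC (change 2.42, SE 0.08). Neither pair of groups overlapped. Tpm2 rose by 2.62, Marcks, an actin-binding kinase substrate, by 1.99 and the matricellular Ccn1 by 1.62. Others fell by less: the thymosin Tmsb10 by 0.59, the calponin Cnn3 by 0.43, Marcksl1, a relative of Marcks, by 0.40 and the actinin Actn1 by 0.38, named after their values had been seen. The serum response element was found in the promoters of Actg1, Acta1, Cnn2 and Vcl, which rose, Myl6, which fell, and Rnd3, which was not called. These genes were named for the motif after their values had been seen. Vcl, or vinculin, had 11.46, 11.20 and 11.02 in EpiLC, against 10.50, 10.73 and 10.57 in ESC (SE of the change 0.15, adjusted p = 0.00345), and the calponin Cnn2 had 8.57, 7.61 and 8.12 in EpiLC, against 7.07, 7.29 and 6.73 in ESC (adjusted p = 0.00434). Acta1, skeletal actin, was detected on 0 of 5 ESC arrays and was at least 1.98-fold higher. The windows of Vcl (chr14:20929148-20929397, plus strand), Cnn2 (chr10:79988350-79988599, plus strand) and Acta1 (chr8:123894776-123895025, minus strand) are shown as genes that rose and carry the element, in capitals.
Vcl: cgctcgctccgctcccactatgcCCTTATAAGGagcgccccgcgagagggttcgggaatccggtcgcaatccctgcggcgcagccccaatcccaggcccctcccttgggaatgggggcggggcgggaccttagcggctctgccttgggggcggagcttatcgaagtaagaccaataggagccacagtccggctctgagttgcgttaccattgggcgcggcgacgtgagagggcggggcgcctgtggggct
Cnn2: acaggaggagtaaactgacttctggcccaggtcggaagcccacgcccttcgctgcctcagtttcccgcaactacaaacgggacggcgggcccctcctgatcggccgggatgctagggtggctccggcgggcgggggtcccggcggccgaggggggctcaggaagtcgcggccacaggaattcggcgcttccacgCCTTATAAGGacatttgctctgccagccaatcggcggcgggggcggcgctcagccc
Acta1: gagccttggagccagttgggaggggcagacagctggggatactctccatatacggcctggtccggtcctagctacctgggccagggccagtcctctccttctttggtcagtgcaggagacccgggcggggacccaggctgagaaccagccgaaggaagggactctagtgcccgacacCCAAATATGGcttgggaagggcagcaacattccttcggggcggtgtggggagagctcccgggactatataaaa

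Of 72 tested genes of the respiratory chain and ATP synthase 22 fell and 0 rose, with a median of -0.16. The share that fell, 30.6%, lies close to the 26.5% of all genes tested, of which 29.9% rose. The share called is thus below the 56.3% of all genes. When the authors' normalized values were used, 2 rose. Cox7a1, a cytochrome oxidase subunit of contractile tissue, was far from the rest at 8.97, 8.67 and 9.19 in EpiLC, against 11.73, 11.82 and 12.02 in ESC (fell by 2.91, SE 0.15), whereas Cox5a fell by 0.62, Atp5g1 by 0.61, Ndufb10 by 0.56 and Ndufa3 by 0.48. Of 70 mitochondrial ribosomal proteins 18 fell and 8 rose (median -0.07), and 10 fell on round 1 arrays alone and 10 under equal-median scaling. Of 58 cytosolic ribosomal proteins 53 were not called, 4 rose and 1 fell (median -0.01). Under equal-median scaling 5 of these fell. Rplp0 rose by 0.80 (SE 0.12), and Rpl3l, the muscle paralog of Rpl3, fell by 1.16 (SE 0.21).

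Other metabolic groups moved through a few members. In glycolysis and hypoxia 10 of 24 rose and 5 fell: the lactate exporter Slc16a3 was at least 3.50-fold higher, the glucose transporter Slc2a1 rose by 1.01 (SE 0.09) and the platelet phosphofructokinase Pfkp fell by 2.99 (SE 0.17). Cholesterol synthesis genes rose in 8 of 15 cases and fell in 1 (60% called, against 56.3% of all genes tested). Cyp51, the lanosterol demethylase, was higher by 1.10 (SE 0.08) and Sqle, the squalene epoxidase, by 0.57 (SE 0.09), while Ebp, an isomerase of the pathway, fell by 1.18. Lysosome genes fell in 13 of 29 cases and rose in 7, and rose in 3 on round 1 arrays alone. The mannosidase Manba fell by 3.46 (SE 0.28) and the galactosidase Glb1 by 2.02 (SE 0.15), and Psap and Gaa fell by 0.96 and 0.80. Of 25 genes of the amino acid stress response 13 rose and 7 fell. Nupr1, a stress-induced nuclear protein, fell by 2.61, Cth, which makes cysteine, by 1.73 and Asns, asparagine synthetase, by 1.15, whereas the glycine transporter Slc6a9 rose by 1.21. Among transporters at large 45 of 155 rose and 55 fell (64.5% called, against 56.3% of all genes tested). The iron exporter Slc40a1, or ferroportin, had the largest rise of those named, from a probe detected on 2 of 5 ESC arrays (fitted 5.20).

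Interferon response and antigen presentation genes rose in 12 of 19 cases and fell in 5, with a median of 1.46. Of the members 8 were detected in EpiLC only and 2 in ESC only. Bst2, or tetherin, rose by 3.17 (SE 0.16) and Irf1 had 12.33, 12.54 and 12.45 in EpiLC, against 10.53, 10.23 and 10.40 in ESC. The immunoproteasome subunit Psmb10 rose by 1.71 (SE 0.12), Psmb9 by a fitted 1.80 (2 of 5 ESC arrays) and Psmb8 was at least 1.08-fold higher. Their activator Psme1 rose by 0.90 (SE 0.11). Ifi27 was at least 4.34-fold lower and Ifitm3 fell by 1.00 (SE 0.09). Irf9, Stat2 and Ddx58 were the other members called lower. Of the 29 members on the array 10 were too dim to test, among them Ifit1, Ifit3, Irf7, Mx1 and the MHC class I genes H2-D1 and H2-K1. B2m and Cxcl10 were not called. The oligoadenylate synthetase Oas1g, named above for its fall of 4.58, is not a member of this list.

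Transcription factor families are given by their counts. Of 18 tested forkhead genes 13 rose and 2 fell, with a median of 0.85, and 22 of the 40 on the array were too dim to test. Foxq1 was at least 2.21-fold higher, Foxe1 at least 1.46-fold and Foxn3 and Foxo1 rose by 1.65 (SE 0.11) and 0.90 (SE 0.10). Of 16 tested Hox genes 8 fell and 3 rose, with 22 too dim. Of the 16, 4 were detected in ESC only and 2 in EpiLC only. Hoxd9 was at least 4.77-fold lower and Hoxd8 at least 1.60-fold, while Hoxb2 was at least 2.39-fold higher, and 5 fell when only genes detected on every array of a group were kept. Of 10 Kruppel-like factors 5 fell and 2 rose, the 2 being Klf6 (2.26, SE 0.23) and Klf7 (1.46, SE 0.27). Of 6 Sox genes 4 fell and 1 rose, among them Sox21 with a fall of 2.25 (SE 0.21). Of 176 Zfp zinc fingers 63 rose and 38 fell (57.4% called, against 56.3% of all genes tested). Zfp608 was at least 9.25-fold and Zfp423 at least 4.78-fold higher, and Zfp607b was at least 6.04-fold lower. Polycomb and bivalent regulators had 5 of 21 higher and 5 lower. Mtf2 fell by 1.36 (SE 0.15) and Phc1 rose by 0.74, and under equal-median scaling 3 fell.

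Whether the change with Foxd3 intact differed from that in tamoxifen was tested as the difference of the 2 changes, ethanol minus tamoxifen, in the same fit. It was called for 247 genes (2.62%), 113 with a positive and 134 with a negative difference, and 1594 had an unadjusted p under 0.05. Of the 247, 204 were also called in ethanol, 128 changed more in ethanol than in tamoxifen and 61 changed in opposite directions, in 21 of them with both changes called. Tgm1, a transglutaminase of the skin, changed by -4.29 in ethanol and -2.51 in tamoxifen (difference -1.78, SE 0.15, adjusted p = 0.000540). It was detected on no EpiLC ethanol array, so these sizes are fitted, and its level in ethanol was at least 11.7-fold lower in EpiLC than in ESC. Lefty1 changed by 2.86 in ethanol and 4.60 in tamoxifen (difference -1.74, SE 0.18, adjusted p = 0.00171), and Alpk3, a kinase of heart muscle, by -3.50 in ethanol and -2.45 in tamoxifen (difference -1.05, SE 0.11). Slc5a5, the iodide transporter, changed by 1.47 in ethanol and 3.22 in tamoxifen (difference -1.75, SE 0.18), fitted sizes since it was detected on 0 of 5 ESC ethanol arrays.

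The sign turned in others. Dnd1, which protects germ cell mRNAs from microRNAs, changed by -0.29 in ethanol and 1.71 in tamoxifen, with the smallest p of the difference (-2.00, SE 0.15, adjusted p = 0.000282). Its ethanol change was small, at 9.74, 9.71 and 9.84 in EpiLC, against 10.02, 10.10 and 10.02 in ESC, and that call was lost under 9 of 18 alternatives. Pdzk1, a scaffold of membrane transporters, changed by -1.02 in ethanol and 1.26 in tamoxifen (difference -2.28, SE 0.24). It was detected on 1 of 3 EpiLC ethanol arrays, so this size is fitted. The count of 247 was 89 on round 1 arrays alone, and it was 136, 164 and 108 without ESC ethanol sample 1, 2 or 3. It was 397 with the authors' normalized table and 549 with the replicate number as a block.

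**Figure D5:**
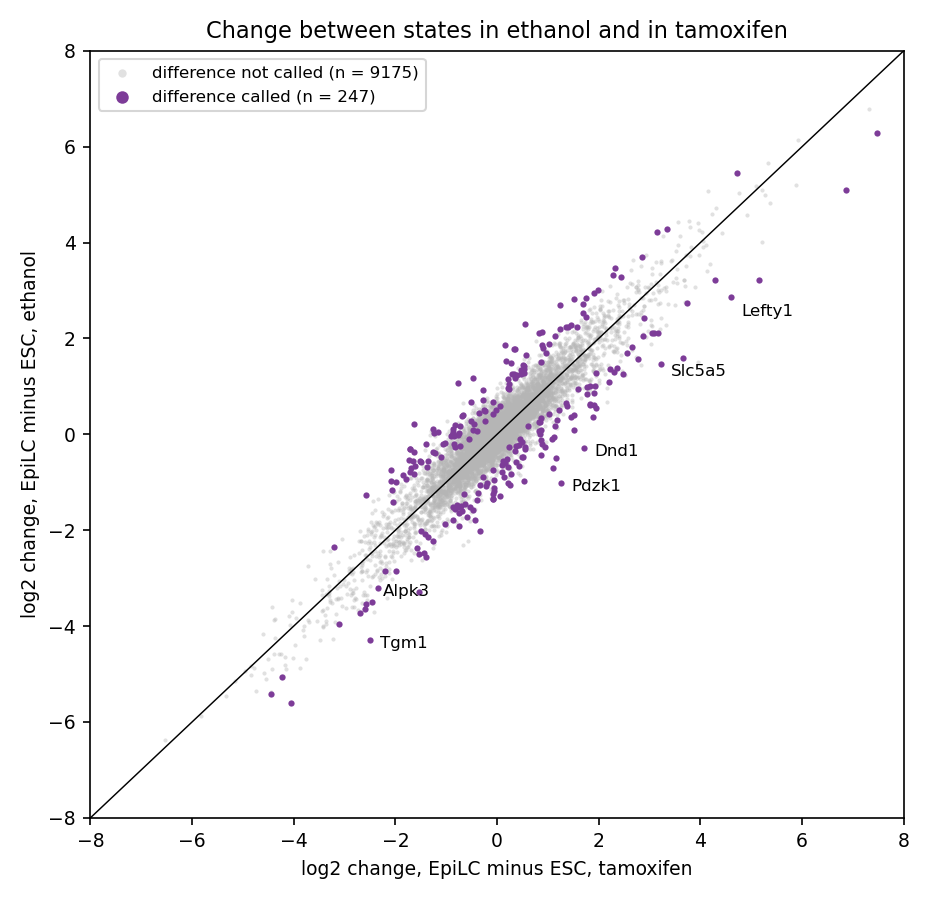
Log2 change from ESC to EpiLC in ethanol (vertical axis) against that in tamoxifen (horizontal axis) for 9422 genes, with the line of equal change; purple points are the 247 genes whose difference was called and grey points the other 9175. Most genes lie along the line, Dnd1, Pdzk1, Slc5a5 and Lefty1 lie below it, and so do Tgm1 and Alpk3, whose falls were larger in ethanol.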

How the data were processed

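Total RNA of the 12 samples was hybridized to 19 Illumina bead arrays. The deposited raw table gives, per the file headers, the mean bead intensity per probe on a linear scale and not normalized between arrays, a detection p-value against negative controls, the bead standard error as a signal (not used in tests) and the bead count (median 36 to 39 beads per probe). The authors' deposited normalized table holds intensity values for which the submitters' processing notes name limma, and it served as an alternative. The number of arrays limits the precision.

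All arrays were background-corrected and quantile-normalized together with neqc (limma 3.58.1, R 4.3.3, offset 16, log2). Per probe, sample and hybridization round were fitted together to give each sample 1 value. A probe was used if detected (p under 0.01) on 3 or more of the 19 arrays, which 12529 were, and the brightest probe stood for its gene: 9422 features, 8680 of them named. In 19 of the 2231 genes read by several probes, calls pointed both ways, Insig1, Tpi1 and Foxj3 among them. The 4 groups were fitted with lmFit and eBayes, which were checked on simulated data, and p-values were Benjamini-Hochberg adjusted over all 9422. Nothing says that replicates are separate cultures, so the spread behind the p-values is that between these samples and may be technical. An exact permutation of 3 against 3 cannot go below p = 0.1. Members and lists were chosen with earlier results of these data known. Genes were named by a rule: the 14 largest rises and falls detected in both states, the 10 largest bounds in each direction, up to 5 members per list by p, all members of 6 lists and the 6 smallest interaction p. The lists of mesoderm, neuroectoderm, trophoblast and other lineages are described in the closing section. The result of 1 gene list is not reported here.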

Additional observations from a re-analysis of the deposited data

Results flagged for a closer look

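Among the 319 named genes, 34 changed by different amounts from ESC to EpiLC in ethanol and in tamoxifen. They were called by the interaction test of limma (adjusted p under 0.05 over 9422 genes). Over all genes tested it called 247 of 9422 (2.62%). Dnd1, Tgm1, Lefty1, Slc5a5, Pdzk1 and Alpk3 were named for their small p in this same test, so part of the 34 was fixed beforehand. The share among named genes therefore cannot be compared with that over all genes. The values are the log2 change in ethanol minus that in tamoxifen. A smaller rise, or none, stood in ethanol for Lefty1 (-1.74), Gbp2 (-1.78), Car4 (-1.19), Slc5a5 (-1.75), Zfp36 (-0.94), Irf1 (-0.82), Gbp3 (-1.04), Igf2 (-0.98), Tpm1 (-0.47), Ccnd1 (-0.56) and Pim3 (-0.43). A larger rise stood in ethanol for Pdlim3 (0.92), Pramel39 (1.15), Pramel37 (1.04), Tmem54 (0.73), Car14 (1.08), Id2 (1.74), Tdpoz4 (1.25), Pmaip1 (1.46) and Notch3 (0.88). A larger fall stood in ethanol, or a fall where the tamoxifen change was not called (Gadd45b and Vim), for Tbx3 (-0.84), Pglyrp1 (-1.55), Cabs1 (-0.98), Apod (-0.83), Klf5 (-0.93), Tgm1 (-1.78), Alpk3 (-1.05), Gadd45b (-1.27), Tead4 (-0.86) and Vim (-0.88). The remaining values were those of Dnd1 (-2.00), Pdzk1 (-2.28), Rpl27a (0.50) and Sox13 (0.83): Dnd1 and Pdzk1 fell in ethanol and rose in tamoxifen, and Rpl27a and Sox13 are described by the difference alone, since their ethanol calls were lost under some alternatives. Where a gene was detected in 1 state only (Gbp2, Gbp3, Car4, Car14, Id2, Tmem54, Slc5a5, Tgm1, Pglyrp1, Cabs1 and Apod) the size of the difference depends on the background.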

How the results depend on the processing

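Of the 294 named genes called, 280 could be fitted under all 18 alternatives and 264 of these kept their call under all of them; 11 of the other 14 kept it under those that fitted them, and 0 values turned round. Over all genes, 1 call turned round with the hybridization round left uncorrected and 3 with the mean of a gene's probes. Genes higher at least 2-fold numbered 385 and lower 424 without background correction, and 394 and 435 with the authors' normalized table, against 999 and 934. Without background correction the log2 changes of named genes were 0.849 times (median) the reported ones where both states were detected and 0.393 times otherwise, so the size of a change near background depends on that step. The difference between ethanol and tamoxifen changes was called for 397 genes with the authors' table and 89 on round 1 arrays alone, and for 108 to 198 when 1 ethanol sample was left out. Between 82.2% (round 1 alone) and 99.8% of calls were shared with an alternative in the same direction. Deviations of same-numbered EpiLC and ESC samples correlated at 0.056, 0.122 and 0.252, and those of unlike number at -0.219 to 0.082. What an equal number stands for is not given, and the main fit did not pair the samples. With the replicate number as a block 3121 genes rose, 2728 fell and 549 differences were called. Signal over background limits the folds of genes detected in 1 state only.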

Other observations

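Lineage genes outside the epiblast moved singly, and many were too dim to test. Of 10 tested mesoderm and definitive endoderm genes 4 rose and 4 fell, with Flt1, a VEGF receptor, at least 3.21-fold higher and Hhex, a homeobox factor, lower by 0.75 (SE 0.09), and 12 further genes on the array were too dim. Of 18 neuroectoderm genes on the array 15 were too dim, and of the 3 tested Nes, the filament nestin, rose by 1.63 (SE 0.31), while the transcription factors Sox21 and Gbx2 fell by 2.25 (SE 0.21) and 0.92 (SE 0.13). Primitive endoderm genes rose in 6 of 13 cases and fell in 4, led by the keratins and by Fst, an activin antagonist detected on 3 of 5 ESC arrays (fitted 2.70), while Amn, a membrane protein of the extraembryonic endoderm, rose by 1.91. Trophoblast genes rose in 8 of 15 cases and fell in 5. Those that fell were the transcription factors Cdx2, Tfap2a, Tfap2c, Ets2 and Tead4, the last by 2.86 (SE 0.13), and Gata3 and Bmp4 were not called. Those that rose were Gata2, Ascl2, Plac1, Fgfr2, Peg10 and the keratins Krt7, Krt8 and Krt18, several of which are also counted in other lists. Neural crest genes rose in 4 of 8 cases and fell in 2, and the homeobox factor Msx1 was at least 11.4-fold higher in EpiLC. Fibroblast genes rose in 3 of 9 cases and fell in 5, with Col5a1 lower by 0.89 and the proteoglycan Dcn at least 2.08-fold higher, and 1 rose when only genes detected on every array of a group were kept.

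Targets of the tumour suppressor p53 rose in 9 of 20 cases and fell in 5, and 3 fell on round 1 arrays alone. Pmaip1, a pro-apoptotic factor, had a fitted rise of 2.69 (3 of 5 ESC arrays), Bbc3, or Puma, rose by 0.81 (SE 0.10) and Sesn1 fell by 0.75 (SE 0.12). Of 27 aminoacyl-tRNA synthetases 7 rose and 8 fell, and of 40 proteasome genes 10 rose and 4 fell. The shares called were 55.6% and 35%, against 56.3% of all genes tested. Histone acetylation and SWI/SNF genes had 5 of 26 higher and 4 lower, with Smarcd3, a subunit found in heart and early mesoderm, at least 1.89-fold lower and Smarce1 higher by 0.98 (SE 0.14). Of 9 tested Eph receptors and ephrins 3 rose and 2 fell, a share of 55.6% called that lies near that of all genes. Efna5 rose by 2.30 (SE 0.13).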
